A study of Homo sapiens with 6 samples.

Results

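The genes described are 10 heat shock chaperones, their cochaperones and a regulator. The inducible chaperones are HSPA1A, HSPA1B, HSPB1 and HSPH1, and the chaperones HSPA4 and HSPA4L are grouped here as constitutive. The cochaperones are BAG2, BAG3 and STIP1, and the regulator is the transcription factor HSF1. Each gene was read from the probe set that carried its symbol, and where a gene had several, the one selected on the highest mean over the 6 arrays would stand for it. All 10 had a single probe set, so that selection removed nothing, and all 10 were among the 14779 named genes tested. The symbols were proposed with results of this same comparison in view. Their differences are therefore a description, and how many of them changed supports nothing about the family.

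Expression was measured in LA1-55n, an established human neuroblastoma cell line, on 6 Affymetrix Human Gene 2.0 ST arrays. In 3 arrays the cells carried an inducible hairpin against GFP (shGFP, the control) and in 3 an inducible hairpin against glycine decarboxylase (shGLDC99), with replicates a, b and c in each group. Both groups received doxycycline at 0.5 µg/ml for 7 days, so exposure to the drug and to an induced hairpin was shared. A single hairpin against the target was used, and effects of that hairpin and of the loss of its target cannot be told apart. The labels do not say whether either population was a clone. The comparison asks which transcripts differ when the hairpin against glycine decarboxylase replaces the control hairpin. The series calls the samples independent but does not say how they were kept apart, and the p-values cover only the spread among them, which may be technical.

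Heat shock proteins bind unfolded proteins. HSP70 chaperones such as HSPA1A cycle between states with ATP and ADP, J-domain proteins start the cycle, and exchange factors, among them the HSP110 proteins (HSPH1, HSPA4, HSPA4L) and the BAG proteins, end it by releasing the nucleotide. STIP1 passes clients from HSP70 to HSP90, and the small heat shock protein HSPB1 holds them without ATP. On proteotoxic stress HSF1 trimerises, binds heat shock elements made of inverted GAA units, and raises transcription of the inducible chaperones. Tumour cells often carry high levels of several of these proteins.

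Stretches of promoter are shown for the 4 members that were lower past the threshold (HSPA1A, HSPA1B, HSPB1, BAG2) and, for contrast, for HSPH1, an inducible chaperone that was not past it. They come from RefSeq (GRCh38.p14), run 5′ to 3′ on the gene's strand, and cover bases -200 to -81 before the annotated start. Capitals mark GAANNTTC, a pair of inverted units of the heat shock element.
HSPA1A, chr6:31815343-31815462, plus strand: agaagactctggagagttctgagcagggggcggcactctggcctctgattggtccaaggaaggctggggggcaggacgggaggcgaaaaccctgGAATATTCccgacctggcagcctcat
HSPA1B, chr6:31827538-31827657, plus strand: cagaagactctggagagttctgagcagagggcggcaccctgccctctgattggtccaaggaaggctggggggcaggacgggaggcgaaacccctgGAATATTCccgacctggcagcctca
HSPB1, chr7:76302473-76302592, plus strand: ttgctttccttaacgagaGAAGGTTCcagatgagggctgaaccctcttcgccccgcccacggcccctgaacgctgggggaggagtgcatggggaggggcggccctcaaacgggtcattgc
BAG2, chr6:57172126-57172245, plus strand: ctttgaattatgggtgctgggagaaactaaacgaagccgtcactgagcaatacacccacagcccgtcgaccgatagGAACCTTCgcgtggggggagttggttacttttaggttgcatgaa
HSPH1, chr13:31162469-31162588, minus strand: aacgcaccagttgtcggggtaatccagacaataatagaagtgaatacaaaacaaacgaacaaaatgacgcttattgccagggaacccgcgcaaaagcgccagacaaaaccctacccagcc

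HSPA1A and HSPA1B lie in tandem on chromosome 6, with 12195 bases between their starts, and both carry GAATATTC, at bases -106 to -99 and -105 to -98. Over the 300-base windows (250 bases before the start and 50 after) their promoters were 92% identical in a global alignment. HSPB1, on chromosome 7, holds GAAGGTTC at -182 to -175, and BAG2, on chromosome 6, holds GAACCTTC at -124 to -117. The windows of HSPH1, HSPA4 and BAG3 held neither GAANNTTC nor TTCNNGAA, the opposite order of units. Only exact matches inside these windows were sought, so their absence does not show that a gene lacks a heat shock element. HSPA4L held TTCTCGAA in 1 of its 3 annotated windows, and STIP1 held TTCCAGAA in 1 of 2, after the start. HSF1 was not searched. Both motifs read the same on either strand. Among 35116 promoter windows of this length, 6.77% held GAANNTTC and 7.74% held TTCNNGAA. The element of 3 units (GAANNTTCNNGAA or its reverse complement TTCNNGAANNTTC) was in 0.49%, and in no window of the 9 members searched.

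The share of falls was similar with and without regard to the motif. Of 10715 tested genes with a promoter window, 5.48% fell and 3.91% rose in shGLDC99 cells. Of the 755 with GAANNTTC in a window, 5.03% fell and 5.03% rose, with a median log2 difference of -0.015 against -0.013 for all with a window. A match is a description of these letters, not a site.

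The targeted gene separated the groups as labelled. GLDC, the decarboxylase of the glycine cleavage system, lay between 7.81 and 7.90 on the log2 scale in shGFP arrays and between 5.65 and 5.98 in shGLDC99 arrays. Of 19 markers of neuroblastoma, 15 were measured, of which 4 fell, 3 rose and 8 did not pass the test. The lineage factors ISL1 (-1.09), TBX2 (-0.60), GATA2 (-0.56) and GATA3 (-0.48) were the falls, and NCAM1 (0.43), CHGB (0.41) and GAP43 (0.41), genes of neuronal adhesion, vesicles and growth cones, were the rises. HAND2, a factor of the sympathetic lineage, lay between 7.97 and 8.09 in all arrays. STMN2, DBH and HAND1 lay below the median gene level of 5.09 in all of them. The summed level of the 15 markers was 11.5 to 11.6 in shGFP and 11.4 to 11.5 in shGLDC99 arrays on the log2 scale, a sum over moves in both directions. Of 18 measured markers of Schwann and glial cells, fibroblasts, endothelium and leukocytes, 1 rose, the fibroblast gene LUM (0.52), from a level of 3.48 that is not shown to exceed background, and 0 fell (limma; 2 higher and 1 lower at an unadjusted p under 0.05, and 1 and 0 in the unmoderated model). Of these 18 markers 12 had a mean level below the median gene level. The others lay above it, among them PRRX1 (mean 7.25 in shGFP arrays), TWIST1 (6.68) and CD8A (6.12). The summed level of the 5 measured leukocyte markers was 7.20 to 7.29 in shGFP and 7.34 to 7.44 in shGLDC99 arrays. The part of other cells in the results below was not tested, and in bulk RNA fewer cells of a type and less RNA per cell cannot be told apart.

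Among the 4 inducible chaperones 3 fell. HSPB1, HSPA1A and HSPA1B fell to 62.1%, 63.6% and 63.2% of the control level in shGLDC99 cells, whereas HSPH1 stood at 94.4% and was not past the threshold. Among the cochaperones BAG2 fell to 71.7%, and STIP1 and BAG3 were not past the threshold. HSPA4, HSPA4L and HSF1 were not past it either. A gene is said to have risen or fallen where its limma p-value, adjusted by Benjamini-Hochberg over all 14779 genes, was under 0.05. By that rule 4 of the 10 members fell and 0 rose (limma; 4 and 0 at an unadjusted p under 0.05, and 3 and 0 in the unmoderated model). Over all genes 8.52% changed, 4.8% fell and 3.72% rose. Because the members were proposed from this contrast, nothing is read from that comparison.

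**Figure D1:**
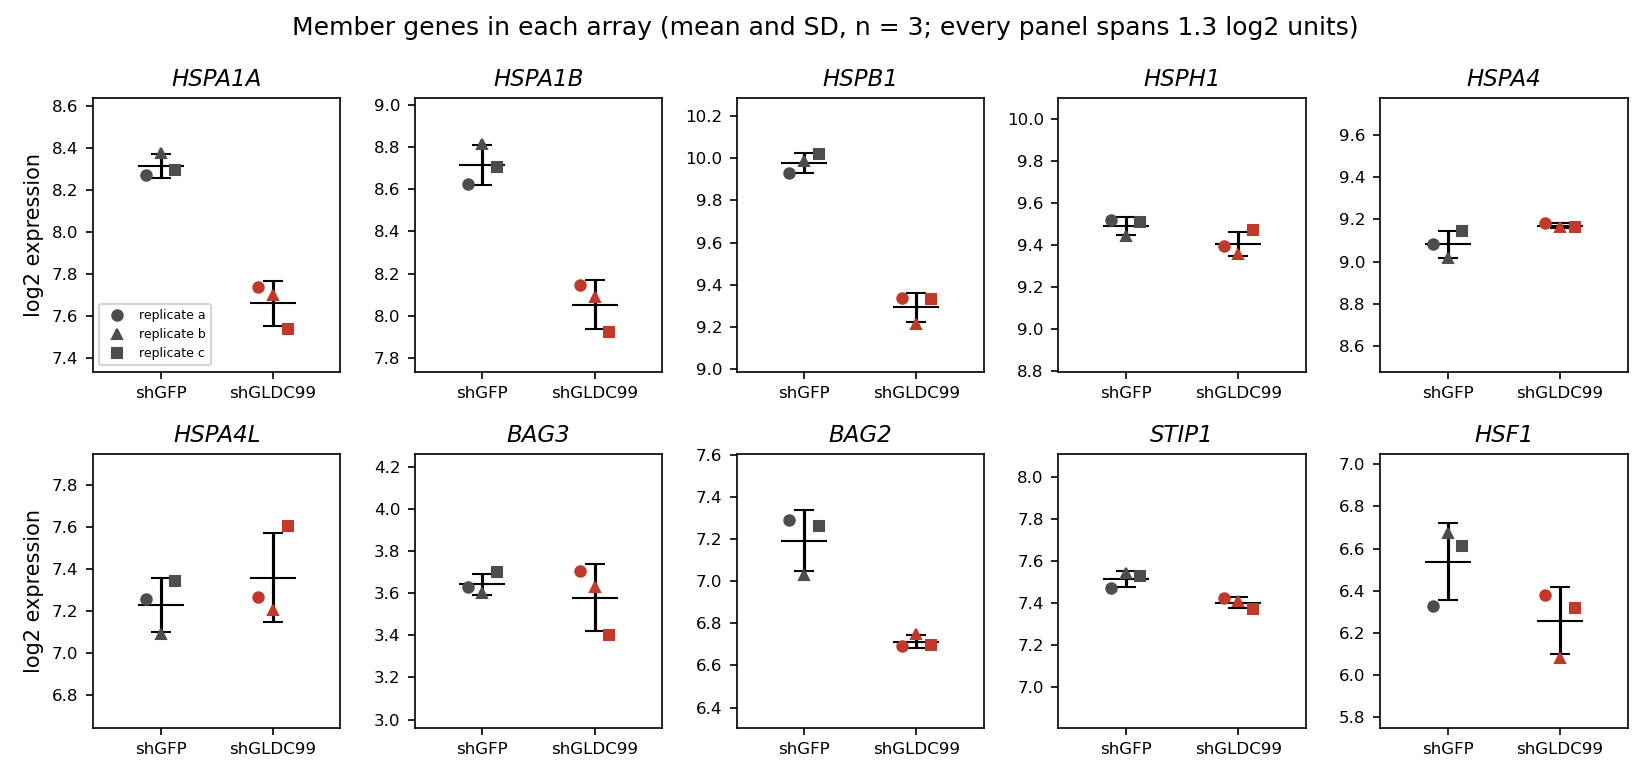
Log2 expression of each member in each array, with shGFP arrays in grey and shGLDC99 arrays in red; bars are the mean and SD (n = 3), and every panel spans the same range of log2 units. HSPA1A, HSPA1B, HSPB1 and BAG2 lie lower in all 3 shGLDC99 arrays, while HSPH1, HSPA4L, BAG3 and HSF1 overlap between the groups.

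HSPB1, the small heat shock protein also known as HSP27, read 9.93, 9.99 and 10.02 in shGFP arrays a, b and c and 9.34, 9.21 and 9.33 in shGLDC99 arrays a, b and c. All shGLDC99 arrays were below all shGFP arrays, and the gap between the groups was larger than the spread within either. The means were 9.98 ± 0.0481 (SD, n = 3) and 9.29 ± 0.0693 (SD, n = 3). HSPB1 thus differed by -0.69 ± 0.0678 (SE) in log2, 1.61-fold lower (limma adjusted p = 0.00456, 95% interval -0.85 to -0.53). It was the 98th largest of the 709 falls. An exact two-sided permutation test on its 6 values gave p = 0.1, the smallest that 3 arrays against 3 allow.

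HSPA1A, the stress-inducible HSP70, read 8.27, 8.38 and 8.29 in shGFP arrays and 7.74, 7.70 and 7.54 in shGLDC99 arrays. HSPA1B, which encodes an all but identical protein from the neighbouring gene, read 8.63, 8.82 and 8.70 in shGFP arrays and 8.15, 8.09 and 7.92 in shGLDC99 arrays. In both genes the groups did not overlap, shGFP array b was the highest and shGLDC99 array c the lowest. HSPA1A differed by -0.65 ± 0.0778 (SE), or 1.57-fold lower (limma adjusted p = 0.0075), and HSPA1B by -0.66 ± 0.0876 (SE), or 1.58-fold lower (limma adjusted p = 0.00938). The transcripts of the pair are nearly identical, and probes of either can bind both. Whether 1 gene or both fell is therefore uncertain, and the pair may be a single measurement made by both probe sets.

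The span of HSPA1L, the other HSP70 gene of the locus, ends 260 bases before the start of HSPA1A; the gene was chosen here for its position, after its value was seen. It averaged 4.23 in both groups (difference -0.01, limma adjusted p = 0.968). That level is below the median gene level and not shown to exceed background.

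HSPH1, the stress-inducible HSP110, read 9.52, 9.44 and 9.51 in shGFP arrays and 9.39, 9.36 and 9.47 in shGLDC99 arrays. The groups overlapped, since shGLDC99 array c lay above shGFP array b. The difference was -0.08 (95% interval -0.24 to 0.07, limma adjusted p = 0.496), so a fall of the size seen for HSPB1 lay outside the interval.

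HSPA4 and HSPA4L, the HSP110 relatives grouped here as constitutive, had positive differences that did not pass the test. HSPA4, also called APG-2, read 9.08, 9.02 and 9.15 in shGFP arrays and 9.18, 9.17 and 9.16 in shGLDC99 arrays. All shGLDC99 arrays were above all shGFP arrays by a small margin, and the difference was 0.09 (95% interval -0.06 to 0.24, limma adjusted p = 0.461). HSPA4L read 7.26, 7.09 and 7.34 in shGFP arrays and 7.27, 7.21 and 7.60 in shGLDC99 arrays. Its groups overlapped and array c was the highest in each, with a difference of 0.13 (95% interval -0.17 to 0.43, limma adjusted p = 0.594).

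BAG2, a cochaperone that inhibits the ubiquitin ligase CHIP on HSP70, read 7.29, 7.03 and 7.26 in shGFP arrays and 6.69, 6.75 and 6.70 in shGLDC99 arrays. The shGLDC99 arrays lay close together and below every shGFP array, of which b was the lowest. The means were 7.19 ± 0.144 (SD, n = 3) and 6.71 ± 0.0311 (SD, n = 3), a difference of -0.48 ± 0.0865 (SE), or 1.39-fold lower (limma adjusted p = 0.0227). BAG2 was not called without any 1 of 5 arrays. The adjusted p was 0.0724 (difference -0.43) without shGFP a and 0.0796 (-0.45) without shGFP c. Without shGLDC99 a, b or c it was 0.0751 (-0.47), 0.0658 (-0.50) or 0.0748 (-0.47). Without shGFP b it was 0.0279 (-0.56), and in the unmoderated model 0.0589.

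STIP1, the HSP70 and HSP90 organising protein, read 7.47, 7.54 and 7.53 in shGFP arrays and 7.42, 7.41 and 7.37 in shGLDC99 arrays. The groups did not overlap, although the difference was -0.11 (95% interval -0.26 to 0.03, limma adjusted p = 0.319). BAG3, a stress-inducible cochaperone that guides clients to autophagy, read between 3.40 and 3.71 in all 6 arrays. That is below the median gene level, it is not shown to exceed background, and a difference of BAG3 could not be measured reliably (-0.06, limma adjusted p = 0.732). Without shGLDC99 array c, its lowest, the difference was 0.03. The groups did not overlap for 6 of the 10 members, 5 of them lower (the 4 that fell and STIP1) and HSPA4 higher. Over all genes 30.8% did not overlap, and 16.3% were lower without overlap.

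HSF1, the regulator of the response, read 6.33, 6.67 and 6.61 in shGFP arrays and 6.38, 6.08 and 6.32 in shGLDC99 arrays. The groups overlapped because shGFP array a lay with the shGLDC99 arrays. The difference was -0.28 ± 0.122 (SE) (95% interval -0.57 to 0.01, limma adjusted p = 0.221), so neither 0 nor -0.5 lay outside the interval. HSF1 is mainly controlled through its protein, which was not measured.

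**Figure D2:**
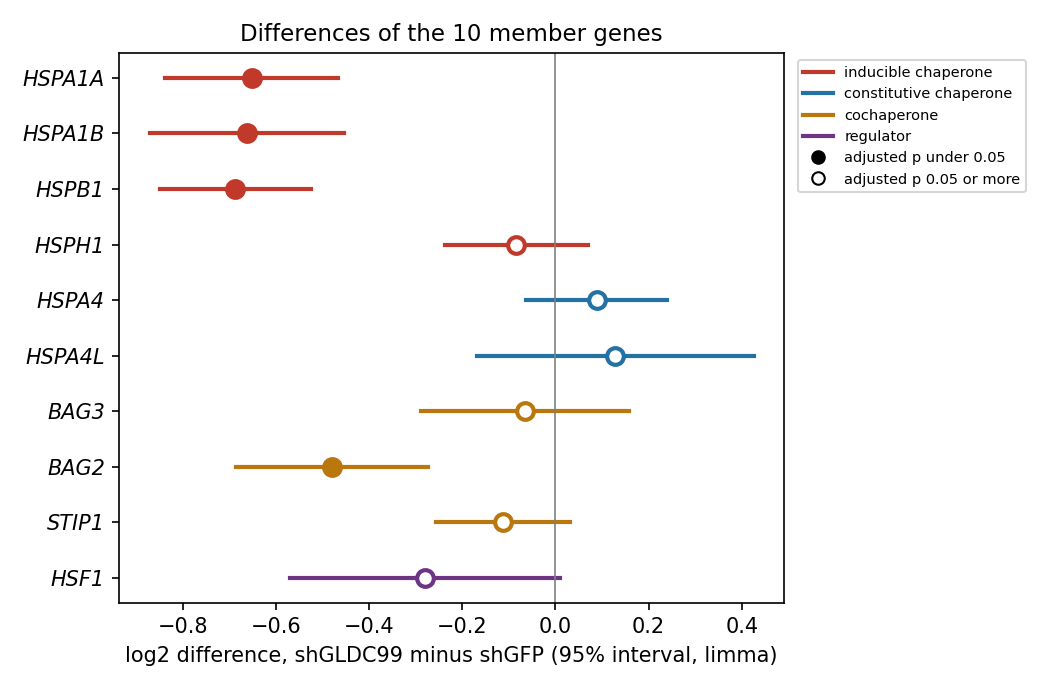
Log2 difference of each member (shGLDC99 minus shGFP, 3 arrays each) with its 95% limma interval, coloured by role; filled points have an adjusted p under 0.05. The intervals of HSPA1A, HSPA1B, HSPB1 and BAG2 lie below 0, and those of the other 6 members include 0.

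Ratios taken within an array compare the changes of members directly. The log2 ratio of HSPB1 to HSPH1 changed by -0.60 between the groups (SD of the ratio 0.072 in shGFP and 0.0483 in shGLDC99 arrays, n = 3 each; exact two-sided permutation p = 0.1). The corresponding value was -0.57 for HSPA1A to HSPH1, -0.78 for HSPB1 to HSPA4 and -0.37 for BAG2 to STIP1. In each of these 4 ratios all shGLDC99 arrays lay below all shGFP arrays. Each sets a member that fell over one that was not past the threshold, so the separation was largely set by those calls and adds no separate support. The ratio of HSPA1A to HSPB1 changed by 0.03, with overlapping groups, and that of HSPH1 to HSPA4 by -0.17, without overlap. These were 6 of 45 possible pairs, chosen after their values were seen, and over all 45 the groups did not overlap for 28. An exact p of 0.1 is the smallest that 3 arrays against 3 allow, so unequal change could not pass a threshold of 0.05.

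The genes closest to HSPB1, the member with the largest difference, were sought by the root mean square distance between profiles over the 6 arrays, each centred on its own mean. CNN2, a calponin that binds actin, was nearest at 0.0217 log2 units, and it fell by 0.69. GCH1, which opens the synthesis of tetrahydrobiopterin, followed at 0.0265 and fell by 0.68. LMNB2, a nuclear lamin, was at 0.0466 and fell by 0.72. GFRA1, a co-receptor of GDNF, was at 0.047 and fell by 0.70, and CARM1, an arginine methyltransferase, was at 0.0481 and fell by 0.65. No chaperone was among them. HSPA1A ranked 78th at 0.0908, HSPA1B 104th at 0.0979, BAG2 317th at 0.151 and HSF1 1194th at 0.226. By construction a small distance from HSPB1 marks a fall of like size with little spread.

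**Figure D3:**
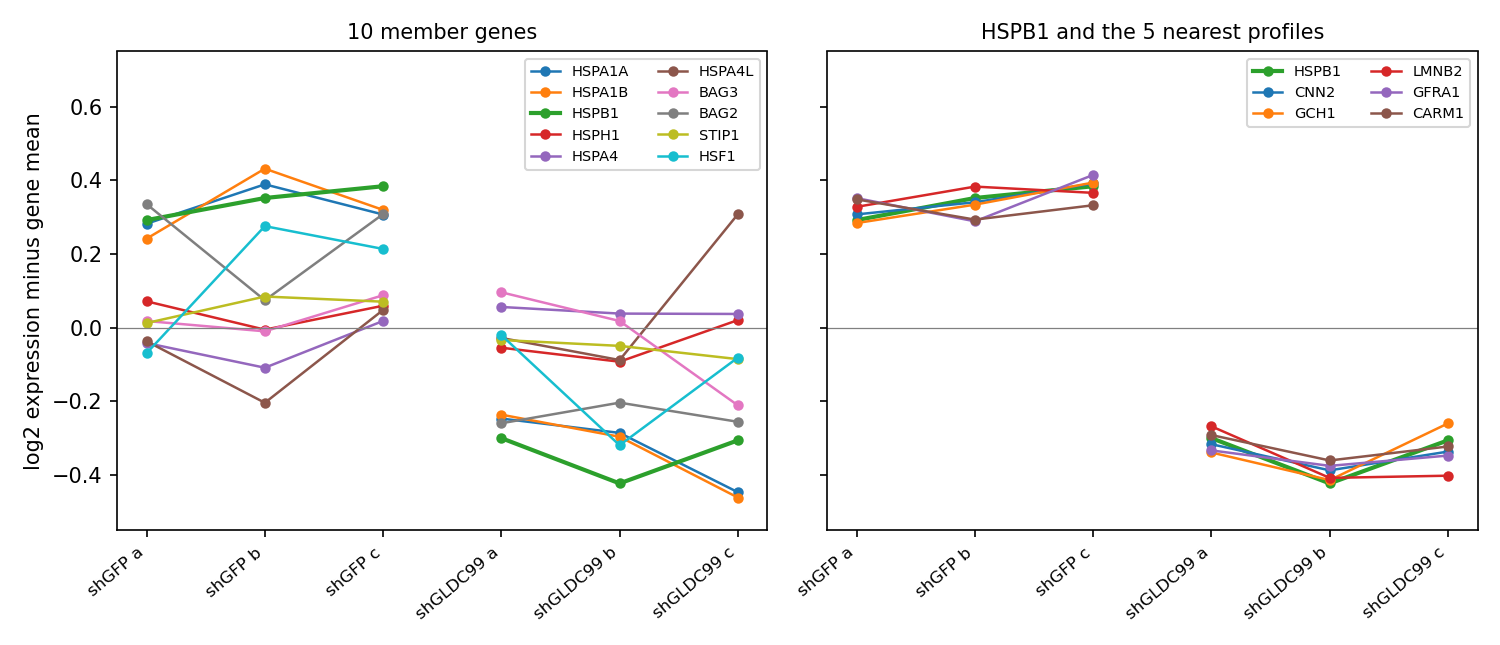
Log2 expression in each array minus the gene's mean over 6 arrays, for the 10 members (left) and for HSPB1 with the 5 genes nearest to it (right); lines join arrays of a group only to guide the eye. HSPA1A and HSPA1B follow one another, and CNN2, GCH1, LMNB2, GFRA1 and CARM1 lie within 0.0481 log2 units (root mean square) of HSPB1.

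The rest of the chaperone network was taken from 8 lists written from general knowledge. Of 154 listed genes outside the members 61 were measured, since only probe sets annotated with 1 gene symbol were used. HSPA8, HSPA5, HSP90AA1, HSP90AB1 and DNAJB1 had no such probe set and were not analysed here. Of the 61, 57 (93.4%) did not pass the test, 3 rose and 1 fell; over all genes 91.5% did not pass it, so the share is near the background. The 61 had a median difference of -0.008 against -0.009 over all genes. The median of the 10 members was -0.196.

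Among 8 measured relatives of HSP70 and HSP110, 1 rose and 0 fell (limma; 1 and 0 at an unadjusted p under 0.05, and in the unmoderated model). HSPA12A, a distant HSP70 relative abundant in brain, read 5.91, 5.65 and 5.74 in shGFP arrays and 6.68, 6.61 and 6.38 in shGLDC99 arrays. The groups did not overlap, and it rose by 0.79 ± 0.107 (SE), opposite in direction to HSPA1A (limma adjusted p = 0.01). The mitochondrial HSP70, HSPA9, chosen after its value was seen, differed by 0.04 (limma adjusted p = 0.737).

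Of 5 measured genes listed as exchange factors and regulators of HSP70, 1 rose and 0 fell (limma; 3 and 0 at an unadjusted p under 0.05, and 0 and 0 in the unmoderated model). ST13, which holds HSP70 in its ADP state, rose by 0.37 from a level of 4.39 that is not shown to exceed background (limma adjusted p = 0.0446). Of 49 J-domain proteins 2 were measured, of which 0 rose (limma; also 0 at an unadjusted p under 0.05 and in the unmoderated model) and 1 fell. SEC63, the partner of HSP70 at the translocon of the endoplasmic reticulum, fell by 0.27 (limma adjusted p = 0.0374). Of 19 genes of HSP90 and its cochaperones 1 rose and 0 fell (limma; 2 and 5 at an unadjusted p under 0.05, and 0 and 0 in the unmoderated model). CDC37L1, a relative of the kinase cochaperone CDC37, rose by 0.40 from 6.29 (limma adjusted p = 0.0451). At an unadjusted p under 0.05, 60% of the genes listed as exchange factors and regulators were higher and 0% lower. The higher ones include HSPBAP1 (0.33, limma adjusted p = 0.0618), a partner of HSPB1 rather than of HSP70, so that share does not describe HSP70 regulators alone. Of the HSP90 list 10.5% were higher and 26.3% lower at that level. Over all genes the shares were 11.1% and 13.2%. The lists are short and were not tested as sets.

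No gene changed in the other 4 lists by limma, and the unmoderated model also gave 0 in each. Over all genes 11.1% were higher and 13.2% lower at an unadjusted p under 0.05, and the counts at that level in these short lists are to be read beside those shares. Of 3 small heat shock proteins, all dim, 0 passed even an unadjusted p of 0.05, and HSPB8 had the smallest adjusted p (0.755). Of 11 chaperonin and prefoldin genes 1 was higher and 1 lower at an unadjusted p under 0.05. PFDN4, a prefoldin subunit, had the smallest adjusted p (-0.34, limma adjusted p = 0.0693). Of 5 heat shock factors and partners 1 was higher and 1 lower at that level, led by HSF2BP (0.25, limma adjusted p = 0.0737). Of 14 textbook targets of the heat shock response outside the members, 11 (78.6%) had negative differences, against 51.6% of all genes, and their median was -0.04. That sign count includes differences as small as -0.01 (HSPA1L and UBB), and 5 of the 14 had a mean level below the median gene level. Of the 14 targets, 1 was higher and 3 were lower at an unadjusted p under 0.05. CACYBP, a calcyclin-binding protein, had the smallest adjusted p among them (-0.22, limma adjusted p = 0.0861), and HSPD1, the mitochondrial chaperonin, chosen after its value was seen, differed by -0.04 (limma adjusted p = 0.796).

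**Figure D4:**
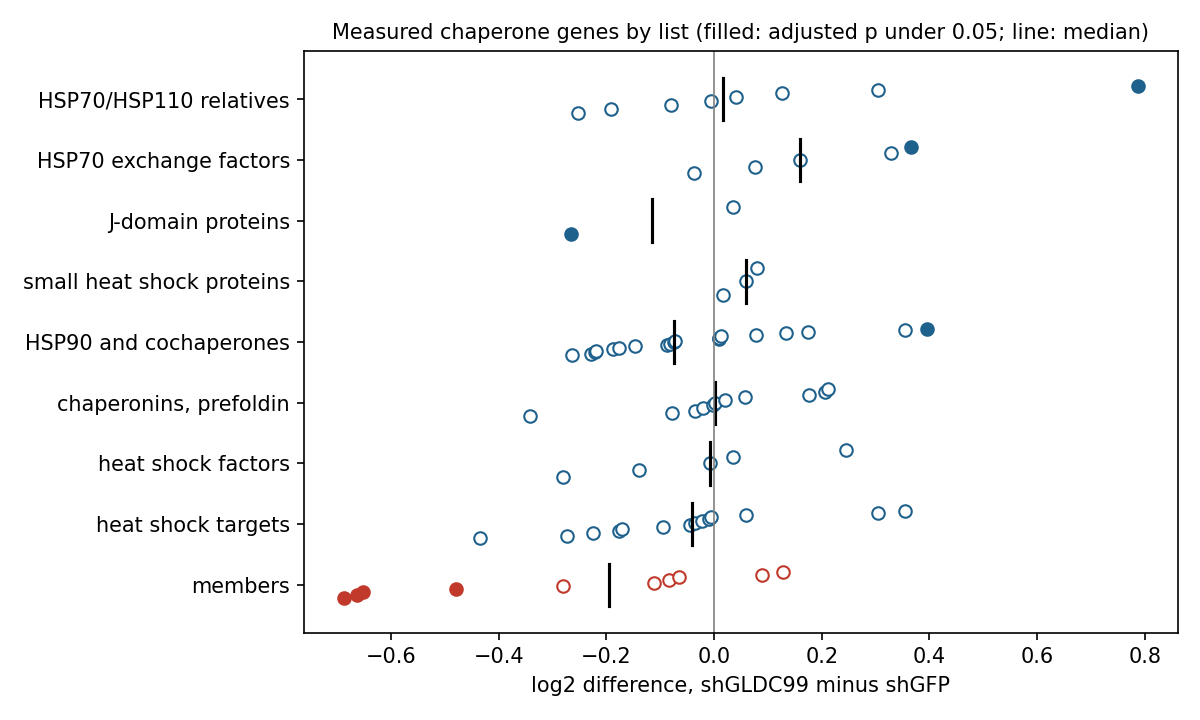
Log2 difference (shGLDC99 minus shGFP) of every measured gene in the 8 chaperone lists, in blue, and of the 10 members, in red; filled points have an adjusted p under 0.05 and vertical lines are list medians. HSPA12A stands at 0.79, and HSPB1, HSPA1A and HSPA1B lie near one another between -0.69 and -0.65; some genes appear in more than 1 list.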

How the data were processed

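The authors deposited values for 31135 probe sets on 6 arrays, read here as log2 intensity. The log base is not stated. It is inferred from the maximum of 13.28, since a 16-bit scanner reaches only 11.09 in natural log, and every fold rests on it. The submitters' processing notes name Partek; how background, normalization and summary were done is not given in the sources used here. Medians per array were 4.28 to 4.33, correlations 0.993 to 0.994 within groups and 0.988 to 0.99 between them. The number of arrays limits the precision.

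Of the probe sets 15098 carried 1 gene symbol. The other 16037 carried none or more than 1 and were left out. Entrez IDs of all 15098 were found in the reference genes. A gene was represented by its probe set with the highest mean. Differences (shGLDC99 minus shGFP) were fitted over 14779 genes by limma 3.58.1 (R 4.3.3; lmFit and eBayes with constant prior variance, no covariates) with Benjamini-Hochberg adjustment. The members and lists were chosen with earlier results of these data known. Genes named were the members, GLDC, up to 3 called genes with the smallest adjusted p per chaperone list (or the first by adjusted p where none was called), and the 5 profiles nearest the member with the largest difference; others were chosen after their values were seen. RefSeq promoter windows of 9 members were searched for heat shock elements. Model and search were tested on simulated data. Other software was version 1.17.8 of data.table, matplotlib 3.10.9, pandas 2.3.3 and numpy 2.4.6.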

Additional observations from a re-analysis of the deposited data

How the results depend on the processing

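HSPB1 and HSPA1A fell under all 16 alternatives run, with differences of -0.71 to -0.65 and -0.69 to -0.59, and highest adjusted p of 0.0427 and 0.0465. HSPA1B passed in 15 of 16 and BAG2 in 8 of 16, and no member with a call changed direction. Averaging probe sets could not change a member's difference, since each has a single probe set. The stricter threshold reuses the main fit. The number of members changed was 4 of 10, 3 to 4 without any 1 array and 2 with a replicate block. Whether the letters pair the arrays is not settled here. Over all genes, deviations of same-lettered arrays correlated at -0.012, 0.018 and -0.001, which cannot exclude pairing that touches only some genes. With the block 229 of 14779 genes changed and 1 of the other chaperone genes; HSPA1B had an adjusted p of 0.0524 and BAG2 of 0.0794. Against 1259 changed genes as deposited, 2221 changed when the dimmest 40% were left out, 2438 when the prior variance followed intensity, 275 at an adjusted p under 0.01 and 461 to 546 without any 1 array. Of the other chaperone genes 4 changed as deposited, and 2 with arrays centred on their median or with the unmoderated model. The count was 12 without the dimmest genes, 13 with the intensity-dependent prior and 1 with all probe sets tested. It was 1 to 2 without any 1 array and 0 at a limma adjusted p under 0.01. At an unadjusted limma p under 0.05, 18 of the 61 measured passed, beside 3599 of 14779 over all genes. Quantile normalization again, array quality weights and averaging probe sets left each of these counts within 1.5 times its value. The cause of these shifts was not tested. Leaving out an array assumes that the groups share 1 spread.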
